A study of Homo sapiens with 6 samples.

Results

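The methionine sulfoxide reductase genes MSRB3, MSRB1, MSRB2 and MSRA were examined in T24 bladder cancer cells after silencing of RBM3, a cold-inducible RNA-binding protein. MSRB3 was picked because it was higher after siRBM3 transfection in these same libraries, and the other 3 genes make up the rest of the human family. The 4 genes are 4 of the 63677 rows of the count table, and all 4 were among the 15099 genes that passed the filter on low counts. Because MSRB3 was chosen on the contrast between siRBM3 and control, its difference is described below without a test, whereas MSRB1, MSRB2 and MSRA were tested.

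T24 is an established line from a high-grade human urothelial carcinoma. Control cells received a non-targeting siRNA and siRBM3 cells received a pool of the siRNAs s11858 and s11860, both at 25 nM with Lipofectamine 2000 for 4.5 h, followed by overnight recovery in full medium. Polyadenylated RNA was sequenced as strand-specific single reads of 75 bp, with 3 control libraries (replicates 1, 3 and 5) and 3 siRBM3 libraries (replicates 3, 4 and 5). The labels do not say whether the libraries of a group came from separate cultures, so p-values measure the spread between these libraries only, and all results are of 1 cell line with 1 siRNA pool.

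Methionine residues in proteins are oxidised by reactive oxygen species to methionine sulfoxide, which exists as S and R forms. MSRA reduces the S form, while the MSRB enzymes reduce the R form on proteins, and thioredoxin with thioredoxin reductase usually supplies the electrons. MSRB1 is a selenoprotein of the cytosol and nucleus that also reverses the oxidation of actin by MICAL enzymes, MSRB2 is mitochondrial, and MSRB3 is made in forms directed to the endoplasmic reticulum (ER) or to mitochondria. Loss of MSRB3 causes an inherited deafness in humans.

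The coding sequence around the active site is shown for the 3 MSRB genes because it holds the difference in chemistry between them. Each line gives 39 bases of the coding strand, 5′ to 3′, from the GRCh37 genome with GENCODE release 44 gene models, and the capitals mark the codon of the catalytic residue.
MSRB1: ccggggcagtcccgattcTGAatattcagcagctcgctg
MSRB2: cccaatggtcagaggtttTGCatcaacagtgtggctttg
MSRB3: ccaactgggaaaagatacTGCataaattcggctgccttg

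In MSRB1 the codon is TGA, read as selenocysteine, at codon 95 of 116 in exon 3 of 4 (minus strand; the window is chr16:1990795-1990833). In MSRB2 it is TGC, a cysteine, at codon 169 of 182 in exon 5 of 5 (plus strand; chr10:23409729-23409767). In MSRB3 it is also TGC, at codon 151 of 185 in exon 7 of 7 of the MANE Select transcript (plus strand; chr12:65856977-65857015). Over the aligned parts of the encoded proteins, MSRB2 and MSRB3 were identical at 68 of 136 residues. MSRB1 matched MSRB2 at 42 of 97 residues and MSRB3 at 41 of 109 residues.

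The 2 coding starts of MSRB3 are shown because they decide where the protein goes and because the gene counts cannot separate them. Each line gives the first 60 coding bases, with the start codon in capitals (GRCh37, chromosome 12, plus strand).
MSRB3-202: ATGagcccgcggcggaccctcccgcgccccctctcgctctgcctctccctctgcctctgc
MSRB3-201: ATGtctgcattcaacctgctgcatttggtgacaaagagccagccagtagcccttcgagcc

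MSRB3-202 starts in exon 1 at base 65672549 and encodes the ER-directed form of 192 codons, of which the first 32 are its own. MSRB3-201 starts in exon 2 at base 65702360 and encodes the mitochondrial form of 185 codons, of which the first 25 are its own. The last 160 codons are shared. The deposited values are 1 count per gene, so every MSRB3 value below is the sum of both forms, and which form differed was not tested.

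Libraries held 23603992 to 45098612 assigned reads, and siRBM3 replicate 3 was the deepest. That library also had the highest share of reads on mitochondrial genes, at 9.40%, against 1.63% to 4.15% in the other 5 libraries. RBM3 itself was checked first in CPM, the read count relative to the library total scaled by TMM factors. Control replicates 1, 3 and 5 held 225, 368 and 301 CPM of RBM3, against 54.1, 90.1 and 58.4 CPM for siRBM3 replicates 3, 4 and 5. Its log2 fold change was -2.14 (SE 0.24), and every siRBM3 library was below every control library. The epithelial keratins KRT7, KRT8, KRT18 and KRT19 were abundant, at 206 to 3240 CPM. CDH1, the adhesion protein of epithelial junctions, was under 1 CPM in every library. The sum of 8 urothelial markers was 148 to 163 CPM in control and 149 to 160 CPM in siRBM3 libraries, most of it PPARG, while KRT5, TP63, UPK1A, UPK1B and UPK3A stayed under 1 CPM. Within this sum GATA3 was higher in every siRBM3 library, at 13.6 to 14.3 CPM against 9.31 to 12.5 CPM in control. Its log2 fold change was 0.37 (SE 0.15), while PPARG and UPK2 overlapped between groups. The sum of the 6 epithelial markers was lower in siRBM3 libraries, at 4207 to 4305 CPM against 5065 to 5870 CPM. Most of it was KRT7, with means of 3167 CPM in control and 2441 CPM in siRBM3 cells. KRT7 and KRT8 were lower in every siRBM3 library, while KRT18 and KRT19 overlapped between groups. EPCAM went the other way, at 4.90 to 6.14 CPM in control and 6.21 to 6.87 CPM in siRBM3 libraries. The part of these markers in the results below was not tested. The leukocyte marker PTPRC, the liver marker ALB and the muscle marker DES reached at most 0.172, 0.161 and 0.0244 CPM in any library. In bulk RNA, fewer cells with a transcript and less of it per cell cannot be told apart.

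By edgeR's quasi-likelihood test with Benjamini-Hochberg adjustment, at a false discovery rate (FDR) of 0.01 and a 1.5-fold change, 0 of 15099 genes were called higher (0%) and 0 were called lower (0%). The silenced gene RBM3, with an edgeR FDR of 0.0822, was also short of 0.01. At an unadjusted p under 0.05, 990 genes were higher (6.56%) and 993 were lower (6.58%). DESeq2 at the same thresholds called 84 of 13068 genes higher (0.643%) and 75 lower (0.574%). The siRBM3 and control libraries did not overlap for 1507 genes that were higher (9.98%) and 1500 that were lower (9.93%). Of the 4 members DESeq2 called 1, MSRB3, and only MSRB3 had libraries that did not overlap, which its choice on this contrast fixes.

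MSRB3 (ENSG00000174099, chr12:65672423-65885210, plus strand) was higher in all siRBM3 libraries than in any control library. Control replicates 1, 3 and 5 held 43.6, 38.1 and 38.0 CPM, and siRBM3 replicates 3, 4 and 5 held 72.8, 67.0 and 68.0 CPM. The groups did not overlap, and the libraries within each group lay close together. The means were 39.9 ± 3.21 CPM in control and 69.3 ± 3.10 CPM in siRBM3 cells (SD, n = 3 each). The log2 fold change was 0.80 (SE 0.10), a fold of 1.74 with a 95% interval of 1.48 to 2.04. MSRB3 thus stood at rank 233 of 15099 genes by fold change from the top, and at the 72.6th percentile by mean level. As a description of the values it was chosen on, edgeR's FDR was 0.0822, short of 0.01, and DESeq2's adjusted p was 5.13e-07. Without siRBM3 replicate 3, the library with the high mitochondrial share, the log2 fold change was 0.76. The counts behind these values were 997 to 1265 reads in control and 1686 to 2987 reads in siRBM3 libraries.

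**Figure D1:**
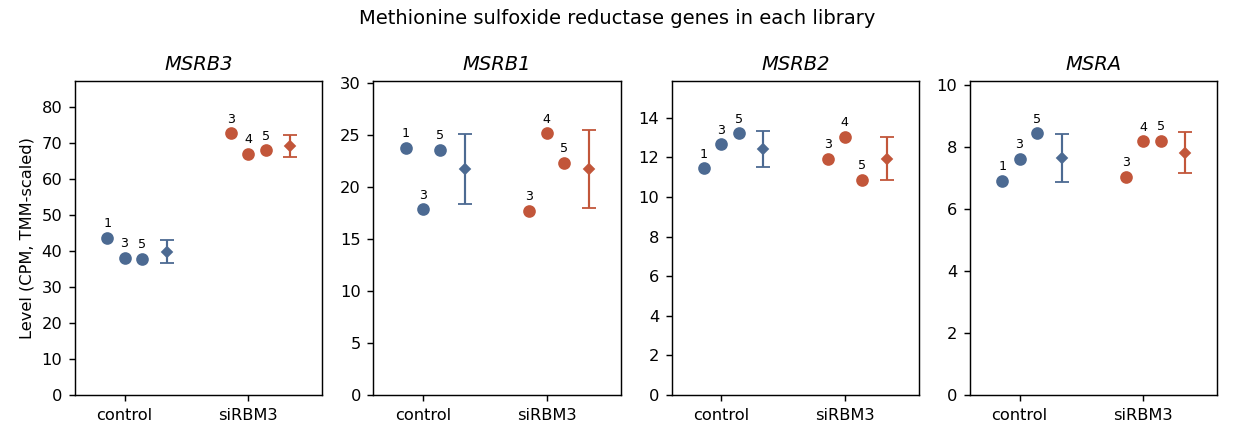
Level of each reductase gene in CPM (TMM-scaled) in the 3 control and 3 siRBM3 libraries. Points are libraries with their replicate numbers, and diamonds with bars are the mean and SD of 3 libraries. MSRB3 was at 38.0 to 43.6 CPM in control and 67.0 to 72.8 CPM in siRBM3 libraries, while the points of the other 3 genes overlap between groups.

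MSRB1 (ENSG00000198736, chr16:1988230-1993200, minus strand), the selenoprotein of the family, had nearly equal group means. Control replicates 1, 3 and 5 held 23.7, 17.8 and 23.5 CPM, and siRBM3 replicates 3, 4 and 5 held 17.7, 25.1 and 22.3 CPM. The groups overlapped, and the lowest library of each group carried the number 3. The means were 21.7 ± 3.36 and 21.7 ± 3.76 CPM (SD, n = 3 each). The log2 fold change was -0.0035 (SE 0.17, 95% interval -0.40 to 0.39), with an adjusted p of 0.996 by edgeR with Benjamini-Hochberg adjustment. The two-sided exact permutation p was 1.0, where 0.1 is the smallest that 3 against 3 libraries allow.

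MSRB2 (ENSG00000148450, chr10:23384508-23410942, plus strand), the mitochondrial member, also had group means close to each other. Control replicates 1, 3 and 5 held 11.4, 12.7 and 13.2 CPM, and siRBM3 replicates 3, 4 and 5 held 11.9, 13.0 and 10.9 CPM. The groups overlapped, with the lowest value in siRBM3 replicate 5 and the highest in control replicate 5. The means were 12.4 ± 0.908 and 11.9 ± 1.09 CPM (SD, n = 3 each). The log2 fold change was -0.058 (SE 0.14, 95% interval -0.38 to 0.26), with an adjusted p of 0.894 by edgeR with Benjamini-Hochberg adjustment and a two-sided exact permutation p of 0.6.

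MSRA (ENSG00000175806, chr8:9911802-10286401, plus strand), the enzyme for the S form, had the lowest CPM of the 4 genes. Control replicates 1, 3 and 5 held 6.89, 7.61 and 8.44 CPM, and siRBM3 replicates 3, 4 and 5 held 7.04, 8.18 and 8.19 CPM. The groups overlapped, and both the lowest and the highest library were controls. The means were 7.65 ± 0.772 and 7.80 ± 0.659 CPM (SD, n = 3 each). The log2 fold change was 0.028 (SE 0.16, 95% interval -0.34 to 0.39), with an adjusted p of 0.959 by edgeR with Benjamini-Hochberg adjustment and a two-sided exact permutation p of 0.9. It rested on 199 to 289 reads per library.

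The 95% intervals above do not exclude log2 changes between -0.40 and 0.39 for MSRB1, -0.38 and 0.26 for MSRB2, and -0.34 and 0.39 for MSRA. The difference in fold change between MSRB3 and each of the other members was not tested, because MSRB3 was chosen for its fold change. None of the 3 was called by DESeq2, which called 0.643% of genes higher and 0.574% lower. None had an unadjusted edgeR p under 0.05, beside 6.56% of all genes higher and 6.58% lower. None was called by edgeR, but edgeR called 0 of 15099 genes, so this says nothing particular about the 3.

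**Figure D2:**
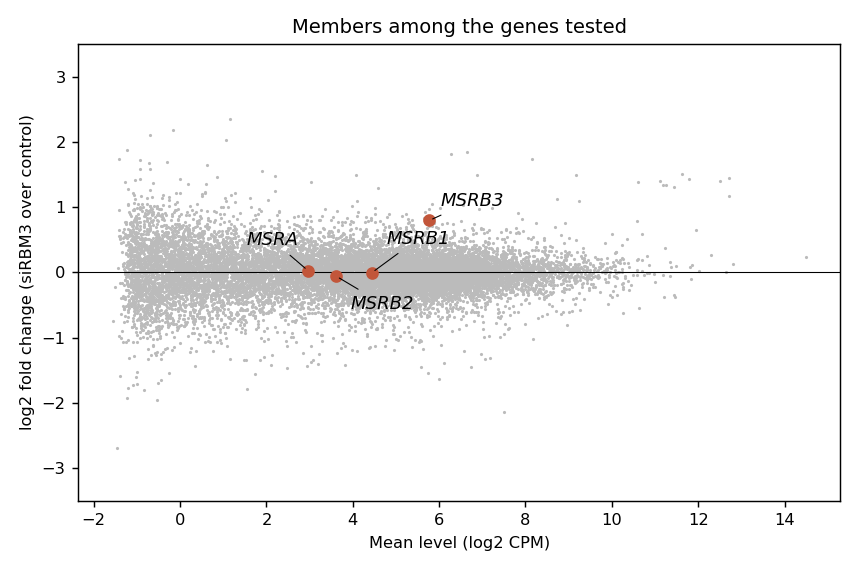
Log2 fold change (siRBM3 over control) against mean log2 CPM for the 15099 genes tested, each gene a grey point and the reductases in red. MSRB3 lies at 0.80, rank 233 from the top among these genes, and MSRB1, MSRB2 and MSRA lie near 0.

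Levels were compared between genes per kilobase of exon (RPKM, from the TMM-scaled counts and the union of each gene's exons). In control cells MSRB1 stood at 10.8 ± 1.67 RPKM, MSRB2 at 6.29 ± 0.459, MSRB3 at 5.39 ± 0.433 and MSRA at 1.85 ± 0.187 (SD, n = 3). MSRB1 was above all other members in every control library, and MSRA was below them. MSRB2 and MSRB3 were neighbours whose ranges overlapped, at 5.78 to 6.68 and 5.13 to 5.89 RPKM. In siRBM3 cells the level of MSRB3 was 9.35 ± 0.419 RPKM, beside 10.8 ± 1.87 for MSRB1, 6.04 ± 0.551 for MSRB2 and 1.89 ± 0.159 for MSRA. MSRB3 was then above MSRB2 in every library, and its 9.04 to 9.83 RPKM lay within the range of MSRB1, 8.79 to 12.5 RPKM.

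The order of MSRB2 and MSRB3 in control cells depended on the length used. With the length of the MANE Select transcript (4377 bases for MSRB3 against 7405 for all its exons), MSRB3 stood at 9.12 ± 0.732 RPKM and MSRB2 at 7.19 ± 0.525 RPKM in control cells. The top and bottom of the order, MSRB1 and MSRA, were the same with either length.

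**Figure D3:**
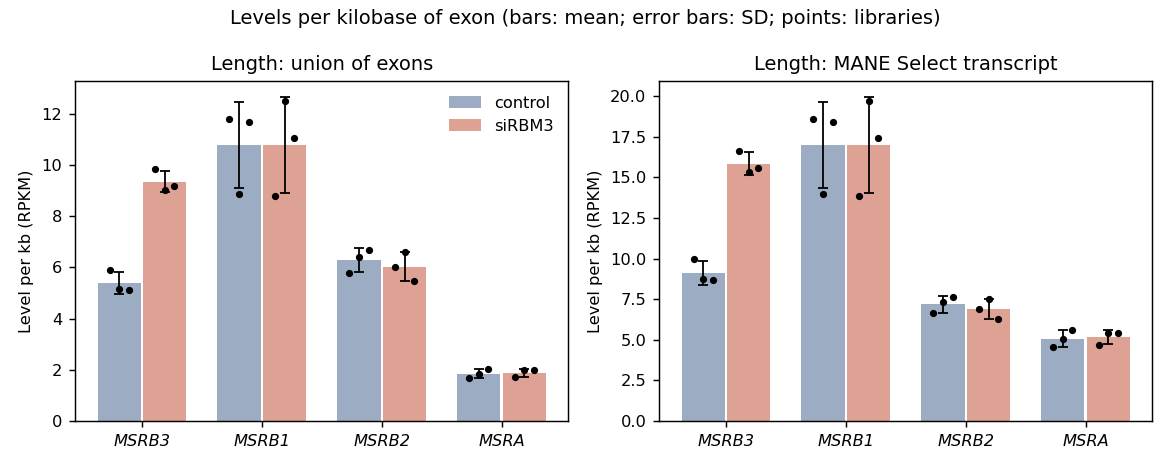
Levels of the 4 genes per kilobase (RPKM) in control (blue) and siRBM3 (red) cells, with the union of exons as length on the left and the MANE Select transcript on the right. Bars are means of 3 libraries, error bars are SD and points are libraries. MSRB3 reaches 9.35 RPKM after siRBM3 on the left axis, while the bars of the other genes are nearly equal between groups.

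Summed over the union of exons, the 4 genes reached 24.3 ± 1.80 RPKM in control and 28.1 ± 1.90 RPKM in siRBM3 cells (SD, n = 3 each). The control libraries ranged from 22.3 to 25.5 RPKM and the siRBM3 libraries from 26.4 to 30.1 RPKM. Without MSRB3 the sums were 18.9 ± 1.68 and 18.7 ± 2.27 RPKM, so the difference in the sum lay in MSRB3. The share of MSRB3 in the family sum was 22.2% ± 1.86 (20.1% to 23.4%) in control and 33.5% ± 3.64 (30.0% to 37.3%) in siRBM3 cells. These sums and shares include the gene picked on this contrast and are given as descriptions.

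Transcripts named after the members were few. MSRB3-AS1, annotated on the opposite strand and covering 1.19% of the exon bases of MSRB3, was at 0.827, 0.765 and 0.188 CPM for control replicates 1, 3 and 5, against 0.341, 0.237 and 0.444 CPM for siRBM3 replicates 3, 4 and 5. The groups overlapped, its log2 fold change was -0.80 (SE 0.54), and with 5 to 24 reads per library little can be read from it. The strand setting of the counting is not known here, so reads in the shared bases cannot be assigned. The pseudogene MSRB1P1 and the divergent transcript MSRA-DT were listed at 0 in every library. Whether a row listed at 0, here and in the gene lists below, reflects the annotation and counting used or absence of the transcript was not tested.

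The members were also compared with each other over the 6 libraries. In log2 CPM, Pearson's r of MSRB3 was -0.021 with MSRB1, -0.39 with MSRB2 and -0.029 with MSRA. Among the other pairs r ran from 0.073 (MSRB1 and MSRB2) to 0.44 (MSRB1 and MSRA). These values are descriptions over 6 libraries in 2 groups, and they carry the group difference of MSRB3.

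The genes whose log2 CPM over the 6 libraries was most like that of MSRB3 were PPP2R1B (r 0.999), CAPZA1 (r 0.997), NORAD (r 0.997), MET (r 0.996) and ENSG00000267152 (r 0.996). PPP2R1B, a scaffold subunit of protein phosphatase 2A, was at 41.1 ± 2.59 CPM in control and 62.8 ± 2.77 CPM in siRBM3 cells (SD, n = 3 each), with a log2 fold change of 0.61 (SE 0.098). CAPZA1, an actin filament capping subunit, was at 303 ± 7.85 and 397 ± 8.20 CPM (log2 fold change 0.39). NORAD, a noncoding RNA that binds PUMILIO proteins, was at 285 ± 15.8 and 410 ± 8.17 CPM (0.53). MET, the receptor of hepatocyte growth factor, was at 175 ± 15.9 and 308 ± 5.87 CPM (0.82). ENSG00000267152 was at about 1 to 2 CPM and shares 84.2% of its exon bases with another gene, so its count is uncertain. All 5 had higher values in every siRBM3 library, which a high r with MSRB3 fixes.

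Each other member had a different nearest gene by the same measure. BCL3, a nuclear IκB family protein, followed MSRB1 with r 0.999, and both were lowest in the replicates numbered 3. LSM2, a subunit of the LSm ring on U6 RNA, followed MSRB2 with r 0.995. DTX3, a ubiquitin ligase, followed MSRA with r 0.992. Their log2 fold changes were -0.017, -0.11 and 0.011, and none was called by edgeR, which called 0 of 15099 genes. Each, like the genes most like MSRB3, was picked as the highest r among the genes tested over only 6 libraries. A high r was thus nearly certain, and shared regulation was not tested.

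The nearest protein-coding genes beside MSRB3 differed from it in level and spread. LEMD3, an inner nuclear membrane protein gene 30287 bases away, was at 25.9 ± 2.63 CPM in control and 23.5 ± 3.31 CPM in siRBM3 cells (SD, n = 3 each). Its log2 fold change was -0.14 (SE 0.14), and the groups overlapped. HMGA2, a chromatin architectural protein gene 333029 bases away on the other side, was at 75.3, 140 and 111 CPM for control replicates 1, 3 and 5, against 234, 119 and 148 CPM for siRBM3 replicates 3, 4 and 5. Its log2 fold change was 0.62 (SE 0.29), the groups overlapped, and the highest value was that of the deepest library. Without that library, siRBM3 replicate 3, the log2 fold change was 0.30, and with each other library left out in turn it was 0.41 to 0.84.

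TNKS, a poly-ADP-ribosylating enzyme gene 271945 bases from MSRA, was at 37.2 ± 2.81 CPM in control and 44.5 ± 1.12 CPM in siRBM3 cells. All 3 siRBM3 libraries were above all 3 control libraries (log2 fold change 0.26, SE 0.10), but its adjusted p was 0.332 by edgeR with Benjamini-Hochberg adjustment. The other neighbours, HS3ST6 and RPL3L beside MSRB1, ARMC3 and PTF1A beside MSRB2 and PRSS51 beside MSRA, had at most 2 counts in any library and were not tested.

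Thioredoxins and their reductases feed electrons to the methionine sulfoxide reductases, and the list of this system also held TXNIP, TXNL1 and NXN. Of its 8 listed genes 7 were tested, and TXNIP was listed at 0 in every library. No gene was called by edgeR (0% of all genes tested) or by DESeq2 (0.643% of genes higher and 0.574% lower). In lists this short, here and below, 0 calls say little about the genes. Of the log2 fold changes 2 were positive and 5 negative, and the median was -0.15 against -0.0083 over all 15099 genes tested. Cytosolic thioredoxin, TXN, was at 224 ± 23.4 CPM in control and 252 ± 69.6 CPM in siRBM3 cells (log2 fold change 0.17), and mitochondrial TXN2 was at 86.6 ± 6.25 and 89.3 ± 1.36 CPM (0.046). Their reductases had negative values, with -0.15 for TXNRD1, -0.27 for TXNRD2 and -0.26 for TXNRD3. Single libraries moved several of these values: TXN was 0.023 without siRBM3 replicate 3 and 0.38 without siRBM3 replicate 5, TXNRD1 was -0.081 without siRBM3 replicate 5 and -0.087 without control replicate 3, and TXNRD2 was -0.17 without control replicate 1. TXNL1, a thioredoxin-like protein, was at -0.055.

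NXN, nucleoredoxin, was the only thioredoxin-system gene with an unadjusted edgeR p under 0.05. It was at 170 ± 8.03 CPM in control and 148 ± 3.53 CPM in siRBM3 cells (SD, n = 3 each; log2 fold change -0.19, SE 0.084), with an adjusted p of 0.377 by edgeR with Benjamini-Hochberg adjustment. The libraries of 3 of the 7 genes, NXN, TXNRD2 and TXNRD3, did not overlap between groups. Each was lower after siRBM3, beside 9.93% of all genes tested, and none did so higher. The edgeR adjusted p was 0.447 for TXNRD2 and 0.478 for TXNRD3.

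**Figure D4:**
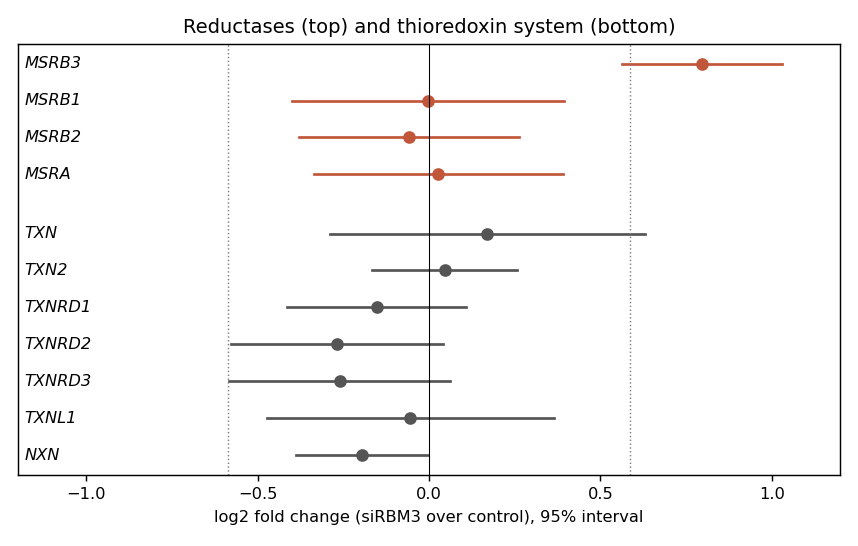
Log2 fold change (siRBM3 over control) with its 95% interval from the edgeR fit for the 4 reductases (red) and the 7 tested genes of the thioredoxin system (grey). Dotted lines mark a 1.5-fold change in either direction. MSRB3 is centred at 0.80, and the other reductases are centred within 0.06 of 0.

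Genes that insert selenocysteine, on which MSRB1 depends, and other listed selenoproteins had values on both sides of 0. All 9 insertion genes were tested, 4 with positive and 5 with negative log2 fold changes and a median of -0.014. EEFSEC, the elongation factor that delivers selenocysteine, was at 25.8 ± 1.28 CPM in control and 20.1 ± 2.12 CPM in siRBM3 cells (SD, n = 3 each; log2 fold change -0.36, SE 0.13), with an edgeR adjusted p of 0.277. A list of 20 other selenoproteins had 12 tested, 5 with positive and 7 with negative values and a median of -0.015. It leaves out the selenoproteins TXNRD1, TXNRD2, TXNRD3 and SEPHS2, which were counted in other lists here. Their values were all negative, at -0.15, -0.27, -0.26 and -0.014. SELENOI, an ethanolamine phosphotransferase, was at 38.3 ± 10.5 CPM in control and 23.7 ± 2.93 CPM in siRBM3 cells (-0.69, SE 0.21), with an edgeR adjusted p of 0.234. GPX3, an extracellular glutathione peroxidase, was at 3.90 ± 0.385 and 5.39 ± 0.606 CPM (0.47, SE 0.18), with an edgeR adjusted p of 0.325. No gene of either list was called by edgeR (0% of all genes tested) or DESeq2 (0.643% of genes higher and 0.574% lower). GPX6 and SELENOH were listed at 0.

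Peroxiredoxins, some of which use thioredoxin, and ER disulfide enzymes, which share a compartment with the ER form of MSRB3, were described next. None was called by edgeR (0% of all genes tested) or DESeq2 (0.643% of genes higher and 0.574% lower). Of 7 peroxiredoxin and sulfiredoxin genes 5 were tested, with a median log2 fold change of -0.097 and a range of -0.31 (PRDX4, the ER peroxiredoxin) to 0.23, and PRDX2 and SRXN1 were listed at 0. Of 11 ER disulfide genes 10 were tested, with a median of 0.0039 and a range of -0.21 to 0.32. The highest was ERO1B, an oxidase of protein disulfide isomerase, at 6.85 ± 0.838 CPM in control and 8.56 ± 0.439 CPM in siRBM3 cells (SD, n = 3 each), with an edgeR adjusted p of 0.433.

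**Figure D5:**
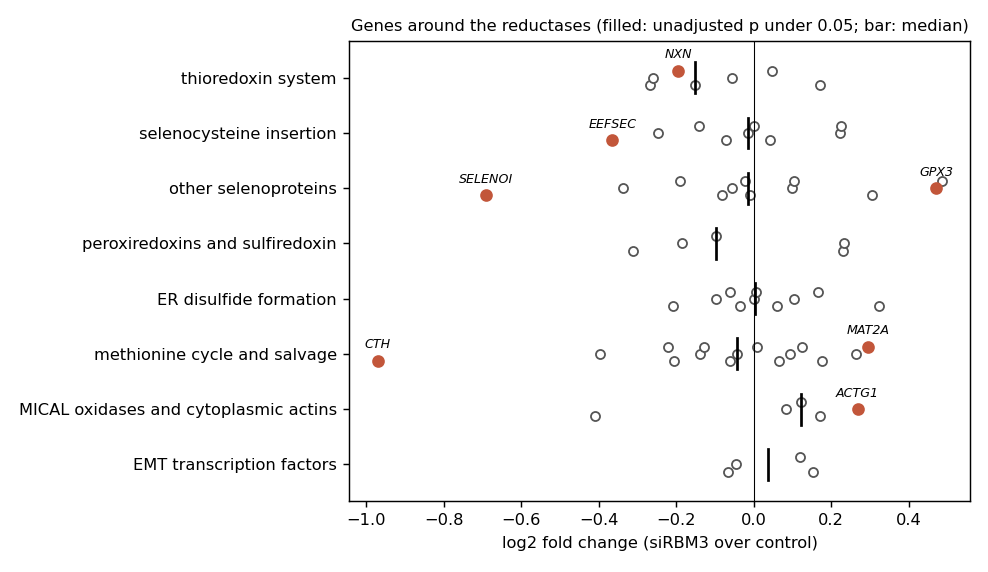
Log2 fold change (siRBM3 over control) of each tested gene in 8 lists around the reductases, 1 circle a gene. Filled circles have an unadjusted edgeR p under 0.05 and are named, and black bars are list medians, which run from -0.15 to 0.12.

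The EMT transcription factor genes were included because ZEB1 has been linked to MSRB3 in other carcinoma cells. Of 5 genes 4 were tested, 2 with positive and 2 with negative log2 fold changes. None was called by edgeR (0% of all genes tested) or DESeq2 (0.643% of genes higher and 0.574% lower). None had an unadjusted edgeR p under 0.05, beside 6.56% of all genes higher and 6.58% lower. ZEB1 was at 60.8 ± 8.11 CPM in control and 66.0 ± 4.63 CPM in siRBM3 cells (SD, n = 3 each; log2 fold change 0.12, SE 0.12), and TWIST1 was too low to test.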

How the data were processed

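Per the labels and the study's methods, RNA of 6 T24 libraries was prepared with a TruSeq stranded mRNA kit. The submitters' processing notes name STAR, Picard, featureCounts of Subread and the hg19/GRCh37 build. The authors deposited 1 table of raw read counts per Ensembl gene. Duplicate reads were marked with Picard. The annotation release, the strand setting and whether marked duplicates were counted are items not given in the sources used. The columns that matched no sample numbered 0.

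Genes were kept by filterByExpr (minimum count 10, minimum total 15), normalised by TMM and fitted with edgeR 4.0.16 (R 4.3.3), using glmQLFit and glmQLFTest with group as the single factor. p-values were adjusted by Benjamini-Hochberg over all 15099 genes, and calls needed an FDR of 0.01 and a 1.5-fold change. Alternatives were DESeq2 1.42.0, limma-voom (limma 3.58.1), RLE factors, library size alone, no filter, a minimum mean of 20 counts, leaving out 1 library at a time and a replicate block. The contrast of the replicate block fit rests only on the libraries numbered 3 and 5, which both groups hold. Scripts were tested on simulated data. No pair of libraries of the same group agreed within sampling noise (chi-square per degree of freedom at least 27.7). Pairs of a control and an siRBM3 library were not checked in this way. Log2 CPM for correlations used a prior count of 2. RPKM was computed here from TMM-scaled CPM and exon lengths of GENCODE release 44 on GRCh37.

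The members and lists were chosen with earlier results of these data known. Named genes were the members, RBM3, all tested thioredoxin-system genes, the genes of each other list with an unadjusted p under 0.05 (at most 3 a direction, otherwise that with the smallest p), the members' neighbours, the 5 genes most like MSRB3 and the 1 most like each other member. KRT, CDH1, EPCAM, PPARG and other markers check the cell type. MICAL2, TXNIP, MTAP, PRDX2, SRXN1, GPX6, SELENOH and TWIST1 were added after their values were seen.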

Additional observations from a re-analysis of the deposited data

How the results depend on the processing

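MSRB3 kept its direction under all 13 alternatives, which its choice on this contrast and the gap between its groups made nearly certain. Its log2 fold changes, given as descriptions, were 0.76 to 0.86 when 1 library was left out and 0.74 to 0.89 under the others. Its adjusted p, given as a description, was under 0.01 with DESeq2, without a filter and with the replicate block only. RBM3, PPP2R1B and MET were called under those same 3 settings, and SELENOI without a filter only. The values near 0 changed sign. MSRB1 was 0.0050 without a filter on low counts and -0.13 to 0.13 when 1 library was left out. MSRB2 was -0.12 to 0.0037 and MSRA -0.045 to 0.10 when 1 library was left out. With library size alone as normalization, MSRA was -0.015, TXN2 -0.0020 and DTX3 -0.033. Leaving out 1 library gave TXNL1 -0.22 to 0.13, BCL3 -0.14 to 0.12, LSM2 -0.21 to 0.00033 and DTX3 -0.093 to 0.14. In none of these did the 3 members pass the threshold, and the cause was not tested. The counts of calls moved most. edgeR with no filter called 127 genes higher and 152 lower, DESeq2 called 84 and 75, and limma-voom called 0 in both directions. Leaving out 1 library gave 0 higher and 0 to 1 lower, the 1 without control replicate 1.

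The labels share the replicate numbers 3 and 5 between groups. Deviations from the group means correlated at 0.53 for number 3 and 0.088 for number 5, and at -0.36 to 0.20 for pairs with unlike numbers. With 2 shared numbers these were not taken to pair libraries. A fit with the replicate block leaves few degrees of freedom. It called 145 genes higher and 191 lower, and gave MSRB3 0.89, MSRB1 -0.046, MSRB2 -0.18, MSRA -0.078, TXN -0.042, TXNRD1 -0.28, TXNRD2 -0.10 and DTX3 -0.13.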

Other observations

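Genes that make and use methionine were described by the same fit. Of 19 genes of the methionine cycle and salvage pathway 15 were tested, 7 with positive and 8 with negative log2 fold changes, with a median of -0.044. None was called by edgeR (0% of all genes tested) or DESeq2 (0.643% of genes higher and 0.574% lower). MAT2A, which makes S-adenosylmethionine, was at 206 ± 21.2 CPM in control and 252 ± 33.0 CPM in siRBM3 cells (SD, n = 3 each; log2 fold change 0.30, SE 0.12), with an edgeR adjusted p of 0.359. CTH, which releases cysteine from cystathionine, was at 26.7 ± 12.0 CPM in control and 13.6 ± 5.61 CPM in siRBM3 cells (-0.97, SE 0.41), with an edgeR adjusted p of 0.376 and a wide spread between libraries. Without control replicate 3 its log2 fold change was -0.63, and with each other library left out in turn it was -1.33 to -0.71. MTAP was listed at 0 in every library.

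MICAL enzymes oxidise methionines of actin, and MSRB1 reduces them. All 5 MICAL and cytoplasmic actin genes were tested, 4 with positive and 1 with a negative log2 fold change and a median of 0.12. None was called by edgeR (0% of all genes tested) or DESeq2 (0.643% of genes higher and 0.574% lower). ACTG1 was at 4565 ± 246 CPM in control and 5497 ± 493 CPM in siRBM3 cells (SD, n = 3 each; log2 fold change 0.27, SE 0.11), with an edgeR adjusted p of 0.346. MICAL2 was at 750 ± 234 and 565 ± 136 CPM (-0.41, SE 0.24), with an edgeR adjusted p of 0.515. Its groups overlapped, at 605 to 1020 CPM in control and 482 to 722 CPM in siRBM3 libraries.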
